A study of Mus musculus with 6 samples.

Results

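Trp53, which encodes P53, its regulators Mdm2 and Mdm4, and 7 genes that P53 is known to switch on (Cdkn1a, Ccng1, Zmat3, Sesn1, Phlda3, Trp53inp1 and Gadd45a) were followed gene by gene through the skin of mice re-growing hair. The 10 genes were chosen by name for their place in the pathway, with earlier results of these data known, and all 10 were found among the 32285 genes of the count tables. Each was measured as unique molecular identifiers (UMIs, counted RNA molecules) in cells of the dorsal skin, by 10x Genomics 3′ single-cell RNA sequencing.

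All animals were wildtype FVB males aged 55 to 57 days, whose back skin was shaved and waxed, a depilation that starts a new round of hair growth. Skin was taken at 0, 4 and 16 hours and at 2, 4 and 6 days (written 0 h to 6 d). Each time point was 1 library, made from equal numbers of cells of 2 mice, and the counts do not separate the animals. No difference between 2 time points could therefore be tested. Levels are given as CPM, the UMIs of a gene per 1000000 UMIs of the cells summed, with exact Poisson 95% intervals that cover counting error only and not the spread between mice.

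The libraries held 72634390 to 112370376 UMIs, and 50502 cells were analysed of 61031 barcodes. Pairs of libraries shared 7 to 33 barcode sequences. The cells fell into 15 classes, each called by the name of the type its marker genes fitted best. A short name such as OB1 stands here for OB1-like cells. Outer bulge cells (OB1, OB2 and OB3) line the resting follicle where its stem cells sit, uHF.B and uHF.SB are basal and suprabasal cells of the upper hair follicle, and IFE.B and IFE.SB are those of the interfollicular epidermis. The names rest on markers such as Krt24, Sfrp1 and Lhx2 for OB1, Krt79 and Cst6 for uHF.SB, and Krt1 and Krt10 for IFE.SB. Each was among the leading genes when all cells were clustered, though an IFE.SB cluster of 1429 cells led with Lce1m and Lor instead. When hair follicle cells were clustered by themselves, only Sfrp1 of these OB1 markers was among the leading genes of the larger OB1 cluster (2900 cells). Krt24 and Cd34 led the smaller one (1634 cells). There Krt1 and Krt10 were also among the leading genes of uHF.SB, and Krt79 was not. The inner root sheath (IRS) class also led with Krt35, a hair shaft keratin. The 10 genes were kept out of the clustering.

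P53 is a transcription factor that is held at low levels by MDM2, a ubiquitin ligase that marks it for destruction, and by MDM4, a relative of MDM2 that blocks its activity. Since P53 also switches on Mdm2, the pair form a negative feedback loop. P53 is controlled mainly at the level of the protein, so its own RNA is a poor guide to its activity, and many of its targets have other activators too. Its targets slow the cell cycle, repair DNA, adjust metabolism or kill the cell, and in skin the pathway is best known for the response of keratinocytes to ultraviolet light.

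The stretches upstream of the starts of Cdkn1a, Ccng1, Mdm2 and Trp53 are shown because they hold the 10-base motif that P53 binds in pairs, here called the P53 decamer, whose pattern reads the same on both strands. In the stretches of Mdm2 and Trp53 a single decamer was found, with no adjoining partner. Of the RefSeq promoters of GRCm38.p6 (250 bases before to 50 after a start), entries were matched for 8 of the 10 genes (all but Zmat3 and Trp53inp1), with 11 windows in all. Capitals mark the decamer, together with any adjoining 10 bases that differ from the pattern by at most 1 base:
Cdkn1a, chr17:29090886-29090967, plus strand: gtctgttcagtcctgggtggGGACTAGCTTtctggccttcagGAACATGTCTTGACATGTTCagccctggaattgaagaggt
Ccng1, chr11:40755442-40755501, minus strand: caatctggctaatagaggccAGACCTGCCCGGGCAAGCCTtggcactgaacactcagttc
Mdm2, chr10:117710915-117710964, minus strand: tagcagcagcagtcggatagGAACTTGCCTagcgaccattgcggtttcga
Trp53, chr11:69580264-69580313, plus strand: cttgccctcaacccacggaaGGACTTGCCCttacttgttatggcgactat

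The 4 stretches lie between annotated genes in GENCODE M21. The decamer began 73 and 51 bases before the start of Cdkn1a, 185 before that of Ccng1, 186 before that of Mdm2 and 75 before that of Trp53. It was also found 173 bases before a start of Sesn1 that lies in an intron of the longer gene. In Gadd45a it lay 40 bases before the RefSeq start, in a stretch that GENCODE M21 annotates as an exon of Gadd45a. In all, 6 of the 11 windows held it, against 2745 of 32851 promoters (8.36%). A decamer with such an adjoining partner was found in 29 promoters (0.0883% of all), 2 of which were those of Cdkn1a and Ccng1. These are matches of letters, and binding was not measured.

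The 10 genes are protein coding. On GRCm38, Trp53 (chr11:69580359-69591873) and Ccng1 (chr11:40748552-40755311) share a chromosome, as do Mdm2 (chr10:117688875-117710758) and Sesn1 (chr10:41809935-41908424), and Mdm4 (chr1:132959484-133030561) and Phlda3 (chr1:135766119-135769136). Cdkn1a lies at chr17:29090976-29100727, Zmat3 at chr3:32334792-32366014, Trp53inp1 at chr4:11156431-11174379 and Gadd45a at chr6:67035096-67037457. Exons of Cdkn1a and Gadd45a overlap those of a gene on the opposite strand, over 273 and 337 bases. Whether the counting used strand is not given in the sources used here, so reads of these overlaps cannot be assigned with certainty.

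Across the 15 classes, Cdkn1a and Phlda3 were the members whose levels differed most between cell types. Cdkn1a, the cyclin-dependent kinase inhibitor p21 that halts the cell cycle, had its highest median in inner bulge cells, the differentiated layer left from the old hair, at 1366 CPM (848 to 1760 over 4 libraries). IFE.SB followed at 810 CPM (563 to 980 over 6 libraries), uHF.SB at 740 (346 to 1093), Langerhans cells at 635 and OB2 at 614. OB1 was near the other end at 228 CPM (48.3 to 528), with uHF.B at 192, IRS at 125 and dermal papilla cells and fibroblasts at 79.8. In this order of medians the ranges of neighbouring classes overlapped, except between IRS and the dermal papilla class, each seen in only 2 libraries.

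Phlda3, which encodes a pleckstrin homology domain protein that keeps AKT off the membrane, was far higher in keratinocytes than in T and Langerhans cells. Its median was 253 CPM in IFE.SB, 243 in OB3 and 193 in OB1, and 13.5 CPM in T cells (8.57 to 18.1) and 5.45 in Langerhans cells (0 to 17.0). A UMI of Phlda3 was found in 60.3% of OB1 cells and 2.94% of T cells. Free keratinocyte RNA was present in the droplets, since 61.9% of T cells (median depth 2215 UMIs) carried a UMI of the keratin Krt14, against 99.97% of IFE.B cells (median depth 8433 UMIs). The median level in T cells was 2.34% of that in IFE.B for Krt14, 2.76% for Krt5 and 10.4% for Phlda3.

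Trp53inp1, a stress-induced nuclear protein that promotes P53 phosphorylation and autophagy, had its highest median in T cells, at 150 CPM (69.3 to 216), ahead of OB2 at 73.3 and OB1 at 28.2. Trp53 ran the other way from Cdkn1a in the epidermis. Its median was 146 CPM in IRS (2 libraries), 112.4 in OB1, 105 in uHF.B and 90.4 in IFE.B, and 55.3 in uHF.SB and 44.6 in IFE.SB. Sesn1, which encodes a leucine sensor that restrains TORC1, and Zmat3, an RNA-binding protein, were highest in OB2, at 58.1 and 20.8 CPM. Mdm2 was highest in inner bulge cells (71.4) and OB2 (58.6). Gadd45a, a growth arrest and DNA repair factor, was highest in the dermal papilla class (59.9), melanocytes (56.0) and T cells (55.2), and lowest in Langerhans cells (6.51). Ccng1, the atypical cyclin G1 that works with the phosphatase PP2A on MDM2, was highest in sebaceous gland cells (34.9) and T cells (34.1). Mdm4 differed least, from 27.7 in IFE.SB to 74.3 in the dermal papilla class. For these 8 genes and Phlda3 every neighbouring pair of classes in the order overlapped in range.

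**Figure D1:**
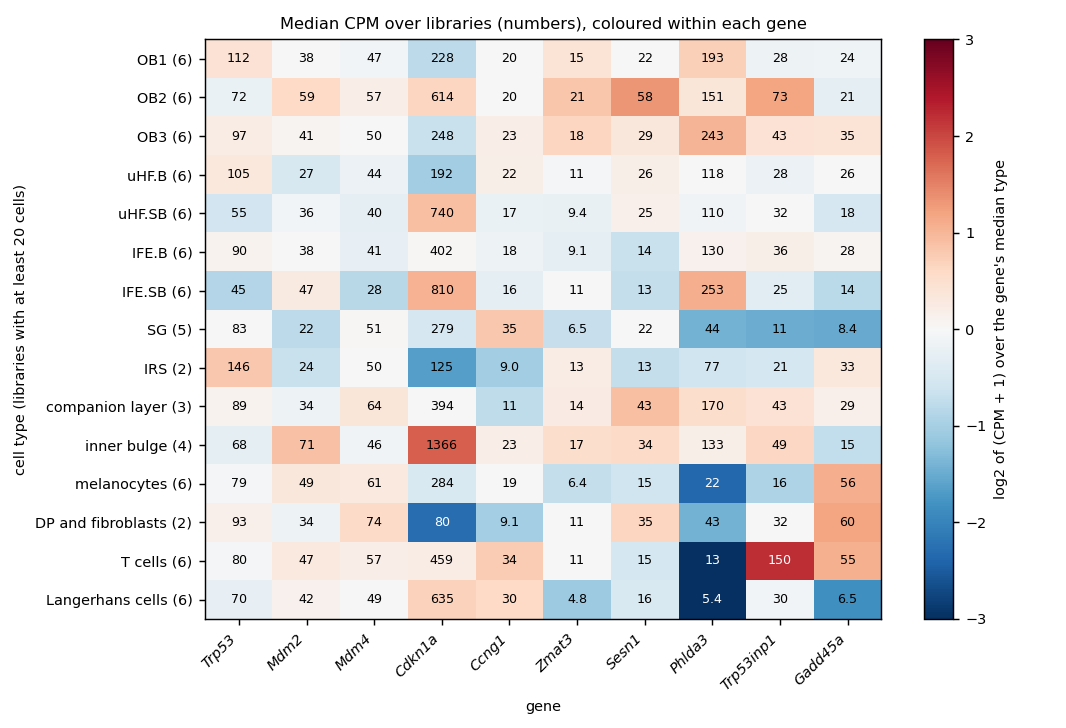
Median CPM of each of the 10 genes (columns) in each of the 15 cell classes (rows, with the number of libraries of at least 20 cells in brackets). Numbers are medians over libraries, and colour gives the log2 difference of CPM + 1 from the gene's own median class, so that only values within a column may be compared. Cdkn1a is darkest red in inner bulge cells (1366 CPM) and Phlda3 darkest blue in T and Langerhans cells (13.5 and 5.45 CPM).

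OB1, the subset that holds most outer bulge cells, was followed over the 6 time points to see how the P53 genes behaved as the follicle left rest. In OB1, Cdkn1a stood at 469, 528, 283, 93.8, 48.3 and 173 CPM in the order of sampling, highest at 4 h and lowest at 4 d. The intervals of neighbouring time points did not overlap, apart from a narrow contact at 0 h and 4 h (438 to 501 and 498 to 559). The share of OB1 cells with a UMI of Cdkn1a was 62.3, 61.6, 52.0, 27.4, 18.8 and 37.0% in the same order. In cells thinned to 2000 UMIs, which left out 128 of 4534 OB1 cells as too shallow, it was 41.8, 48.1, 30.6, 12.6, 7.79 and 22.1%.

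OB1 was made of different cells early and late. A cluster led by Krt24 and Cd34 held 68.8 to 84.6% of OB1 cells up to 16 h, and a cluster led by Gnmt and including Col14a1 held 68.6 to 90.5% from 2 d on. The low point of Cdkn1a was seen in each cluster by itself. In the Krt24 cluster it was 519, 588, 346, 115, 114 and 235 CPM over the 6 time points, and in the Gnmt cluster 257, 298, 180, 90.2, 44.5 and 151 CPM. Non-cycling OB1 cells gave 464, 518, 311, 117, 52.3 and 199 CPM.

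The fit over the 6 libraries, a curve in hours tested by edgeR's quasi-likelihood method, called none of the 10 genes in OB1, at a background of 1 of 11003 genes (0.00909%). At an unadjusted p under 0.05, 1106 genes passed, among them Cdkn1a (adjusted p = 0.103) and Gadd45a (adjusted p = 0.495). The linear part of the Cdkn1a curve was −2.46 ± 0.54 (SE, log2 over the 6 days). That of Gadd45a was 1.41 ± 0.45. The call depended on the time scale. On log2(hours + 1), which spreads out the early time points, 1801 of 11003 genes passed (16.4%), and with them 5 of the 10, Cdkn1a (−2.99 ± 0.52, adjusted p = 0.0057), Phlda3 (adjusted p = 0.032), Gadd45a (0.035), Trp53inp1 (0.038) and Sesn1 (0.048). The linear part of the Cdkn1a curve was negative in all 26 other settings. It passed without the 0 h library, without the 4 h library, by rank of the time point, with DESeq2, with no filter, at the higher cluster resolution, and in all 10 settings on the log scale, and missed the threshold in the others. The number of all genes passing differed widely too. In hours it was 2245 without 0 h, 760 without 4 h, 523 with DESeq2, 254 with no filter and 177 at the higher resolution. By rank of the time point 851 passed.

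The other members in OB1 had smaller spans. Trp53 was 57.8, 86.5, 111, 161, 159 and 113 CPM in the order of sampling, so it was highest at 2 d and 4 d, the time points at which Cdkn1a was lowest. Mdm2 was 41.4, 41.0, 50.4, 24.8, 31.1 and 34.5 CPM in the same order. Mdm4 stayed between 37.7 and 56.7 CPM and Ccng1 between 14.3 and 35.1. Neither Trp53 nor Mdm2, Mdm4, Ccng1 or Zmat3 passed on either time scale. Gadd45a was 23.97, 19.2, 16.6, 23.4, 49.1 and 55.8 CPM. Sesn1 was 40.9 CPM at 0 h and 44.5 at 6 d, and between 15.2 and 26.0 at the time points between them.

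At 4 h, Trp53inp1 and Phlda3 had an extreme level in most keratinocyte classes. The share of all genes with such an extreme is not given here. Trp53inp1 was lowest at 4 h in 7 of the 7 keratinocyte classes (OB1, OB2, OB3, uHF.B, uHF.SB, IFE.B and IFE.SB). In IFE.B the 4 h level was 0.774 CPM (0.496 to 1.15, 24 UMIs), after 66.4 CPM (63.4 to 69.6, 1801 UMIs) in the 0 h library and before 34.3 in the 16 h library. In uHF.B it was 53.8, 1.27 and 20.04 CPM in the same libraries, with 6 UMIs behind the 4 h value. In OB1 these libraries held 88.8 CPM (75.7 to 104), 10.3 (6.50 to 15.4) and 28.2. The level at 0 h was thus 85.8 times that at 4 h in IFE.B, 42.4 times in uHF.B, 10.8 times in IFE.SB and 8.66 times in OB1.

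T cells of the same libraries did not share the low point. Their Trp53inp1 was 113, 194 (166 to 225) and 216 CPM in the first 3 libraries, and the gene was found in 24.2, 32.1 and 36.7% of T cells (18.9, 27.3 and 29.1% thinned). In IFE.B cells the shares were 36.1, 0.692 and 25.1% (12.4, 0.0605 and 6.34% thinned). Thinning left out 1003 of 2719 T cells as too shallow, against 131 of 16635 IFE.B cells. Melanocytes had 2, 0 and 1 UMIs, too few to tell.

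Phlda3 went to its highest level in the same 4 h library, in 6 of the 7 keratinocyte classes (OB2 was highest at 6 d). IFE.B held 492 CPM at 4 h (485 to 500), against 85.7 before it, 175 in the next library and 123 to 134 later. The ratio of 4 h to 0 h was 5.74 in IFE.B, 5.30 in uHF.B, 3.17 in IFE.SB and 1.92 in OB1. Of IFE.B cells, 47.0% carried a UMI of Phlda3 at 0 h and 94.3% at 4 h (15.3 and 57.8% thinned). In T cells the share was 2.31 to 3.83% over the libraries. It was 2.33% at 0 h (5 cells) and 3.83% at 4 h (15 cells). Their ratio of 4 h to 0 h in CPM was 2.12, the same direction as in keratinocytes but on few UMIs.

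Sesn1 was lowest at 4 h in 5 of the 7 classes, and Mdm4 was lowest at 4 h in 3 and at 16 h in 4. Gadd45a was lowest at 16 h in 5 and highest at 6 d in 5. In IFE.SB, for instance, it was 5.48 CPM at 16 h and 39.2 at 6 d. Trp53 was lowest at 0 h in 6 classes and Mdm2 highest at 0 h in 5. Ccng1 was highest at 16 h in 5 classes and Zmat3 in 4. The 7 classes come from the same 6 libraries, so they repeat each time point's library rather than replicate it. These counts have no count over all genes beside them and are a description.

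Cdkn1a did not have the same course everywhere. In uHF.B it was 582, 280, 146, 92.6, 146 and 238 CPM over the 6 time points, lowest at 2 d. In IFE.B it was 554, 227, 349, 248, 455 and 471 CPM, lowest at 4 h. In IFE.SB it stayed between 563 and 980 CPM and in OB2 between 472 and 1013. OB3 was like OB1 in that it held 618 CPM at 4 h and 63.0 at 4 d. T cells (936 CPM), Langerhans cells (1044) and inner bulge cells (1760) were highest at 6 d. The curve fits called none of the 10 genes in uHF.B (0 of 11717 genes, 0%, with 240 at an unadjusted p under 0.05), IFE.B (0 of 12925, 0%, with 83) or IFE.SB (0 of 12513, 0%, with 386), nor did any alternative call a member there. Among those alternatives DESeq2's likelihood ratio test was included.

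**Figure D2:**
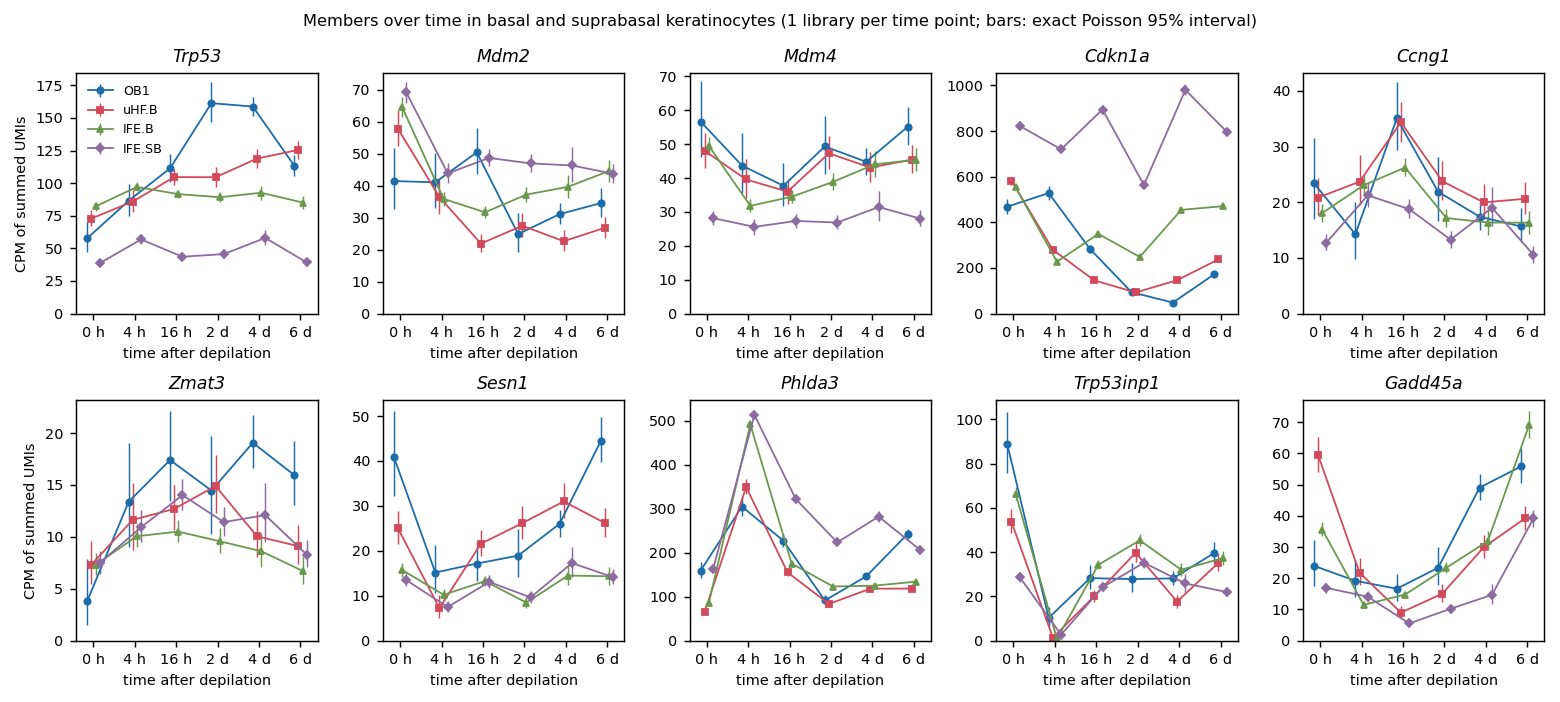
CPM of each gene (a panel each, with its own axis) against the time after depilation in OB1, uHF.B, IFE.B and IFE.SB cells, with exact Poisson 95% intervals as bars and 1 library per time point. In OB1, Cdkn1a runs from 528 CPM at 4 h to 48.3 at 4 d, Trp53inp1 has its low point at 4 h in all 4 classes, and Phlda3 its high point there.

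Other markers moved with these values in OB1. The 14 immediate early and stress genes, which respond to handling and enzymatic digestion as well as to wounding, summed to 39836, 28425, 17232, 8603, 11212 and 20665 CPM over the 6 time points, with the low point at 2 d. Their part in the course of Cdkn1a was not tested. For sorted cells the study's methods give trypsin alone for resting skin, and collagenase and hyaluronidase before trypsin for growing skin. Which digestion each library had is not stated, so whether it changed over the time course is not known. On the log2(hours + 1) scale 10 of these 14 genes passed with a negative and 2 with a positive linear part. The median was −1.64, against 0.06 over all genes. Of 14 tested cyclins, CDKs and partners, 9 passed with a positive and 1 with a negative linear part (median 2.57), led by Ccnb2, Ccne1, Ccnb1 and Cdk1. Among the 16 tested upstream regulators of P53 the kinases Chek1 (5.33 ± 0.86) and Chek2 (3.44 ± 0.65) were positive, and the deacetylase Sirt1 (−1.92) and the ribosomal protein gene Rpl5 (−1.28) negative. Of the 11 apoptosis targets 2 were positive and 1 negative, and of the 22 other targets 4 were positive and 2 negative. Over all 11003 genes, 914 passed with a positive and 887 with a negative linear part. The test covers the whole curve, so a gene that passed can have a linear part within its SE of 0. In hours, none of these lists had a gene past the threshold.

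A finer clustering set apart 430 OB1 cells led by Cpa4, Serpinb2 and Itga2, most of them from the 4 h (229), 16 h (131) and 6 d (67) libraries. In these 3 libraries Cdkn1a was 872, 473 and 874 CPM in this cluster, against 309, 223 and 139 in the other OB1 cells. Mdm2 was 59.6, 84.5 and 78.6 CPM, against 29.2, 39.6 and 32.4. Both genes were thus higher inside this cluster in each of the 3 libraries, a description with no test, as this comparison was chosen after the values were seen.

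Cycling OB1 cells were compared with non-cycling OB1 cells of the same library. A cell counted as cycling when it held at least 2 UMIs of 10 proliferation genes, Mki67 and Top2a among them, after thinning to 2000 UMIs. The share of cycling OB1 cells was 5.70, 2.72, 9.74, 42.0, 51.5 and 23.3% over the 6 time points, 1337 of 4406 cells in all. A further 935 cells held 1 UMI and 374 held exactly 2, so many cells lie near the threshold.

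Trp53inp1, Sesn1, Cdkn1a, Gadd45a and Mdm2 were lower in cycling OB1 cells, and no member was higher. The background was 1317 of 10712 genes lower (12.3%) and 1082 higher (10.1%). The log2 difference was −1.12 ± 0.19 (SE, 6 libraries, adjusted p = 2.1e-05) for Trp53inp1, −0.78 ± 0.19 (0.0022) for Sesn1, −0.64 ± 0.16 (0.0044) for Cdkn1a, −0.51 ± 0.16 (0.016) for Gadd45a and −0.44 ± 0.16 (0.041) for Mdm2. The median over the 10 genes was −0.38, against −0.06 over all genes.

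In the order of sampling, cycling OB1 cells held 539, 589, 100, 76.1, 45.5 and 111 CPM of Cdkn1a, and non-cycling ones 464, 518, 311, 117, 52.3 and 199. Cdkn1a was therefore lower in cycling cells in 4 of 6 libraries. The exceptions, 0 h and 4 h, had only 18 and 12 cycling cells. From 16 h on Trp53inp1 was 14.1, 13.1, 18.8 and 22.7 CPM in cycling and 30.1, 46.9, 41.6 and 46.6 in non-cycling cells. It too was lower in these 4 libraries and not at 0 h and 4 h.

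Sesn1 and Gadd45a were lower in cycling cells in each of the 4 libraries from 16 h on, though by little at first. At 16 h Sesn1 was 16.1 CPM in cycling cells (8 UMIs) and 17.3 in non-cycling ones. Gadd45a was 14.1 (7 UMIs) and 17.0 CPM at 16 h, and 22.3 and 24.7 at 2 d. From 2 d on, Sesn1 was 9.84, 21.1 and 35.8 CPM in cycling and 30.7, 32.4 and 47.9 in non-cycling cells. At 0 h and 4 h the cycling cells held 0 UMIs of Sesn1, with upper Poisson limits of 34.9 and 63.9 CPM, and 1 UMI of Gadd45a each, so these libraries give no direction for either gene. Gadd45a was 42.7 and 58.0 CPM at 4 d and 41.6 and 62.3 at 6 d. Mdm2 was lower in 4 of 6 libraries, with 27.9 and 34.8 CPM at 4 d and 25.6 and 37.9 at 6 d. One of these libraries, 0 h, had only 2 UMIs of Mdm2 in cycling cells.

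Trp53 itself ran the other way. Over the 6 time points it was 66.1, 139, 135, 188, 166 and 131 CPM in cycling cells, and 57.2, 86.1, 107, 126, 148 and 106 in non-cycling cells. It was higher in cycling cells in 6 of 6 libraries (on 7 and 8 UMIs at 0 h and 4 h), yet the difference of 0.27 ± 0.13 did not pass (adjusted p = 0.13).

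The calls depended on how cycling was defined and on the test. With DESeq2 none of the 10 passed (1336 genes did), and the adjusted p lay between 0.059 for Sesn1 and 0.87 for Mdm4. With at least 1 UMI as the limit none passed either (878 genes did), and without thinning only Mdm2 did (among 1106 genes). Without the 4 d or without the 6 d library 3 remained, Trp53inp1, Sesn1 and Cdkn1a, among 1345 and 1336 genes that passed. The cycling cells lay in the Gnmt cluster in 94.1% of cases and the non-cycling ones in 51.5%, and their median depths were 7434 and 5347 UMIs. Within the Gnmt cluster alone, over 4 libraries, Trp53inp1 (−1.32 ± 0.16), Gadd45a (−0.71 ± 0.14), Sesn1 (−0.61 ± 0.17) and Phlda3 (−0.30 ± 0.11) were lower, while Cdkn1a (−0.77 ± 0.24, adjusted p = 0.062) and Mdm2 (adjusted p = 0.14) missed the threshold. This last fit, in which 2379 of 10136 genes passed, was added after the data were seen.

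**Figure D3:**
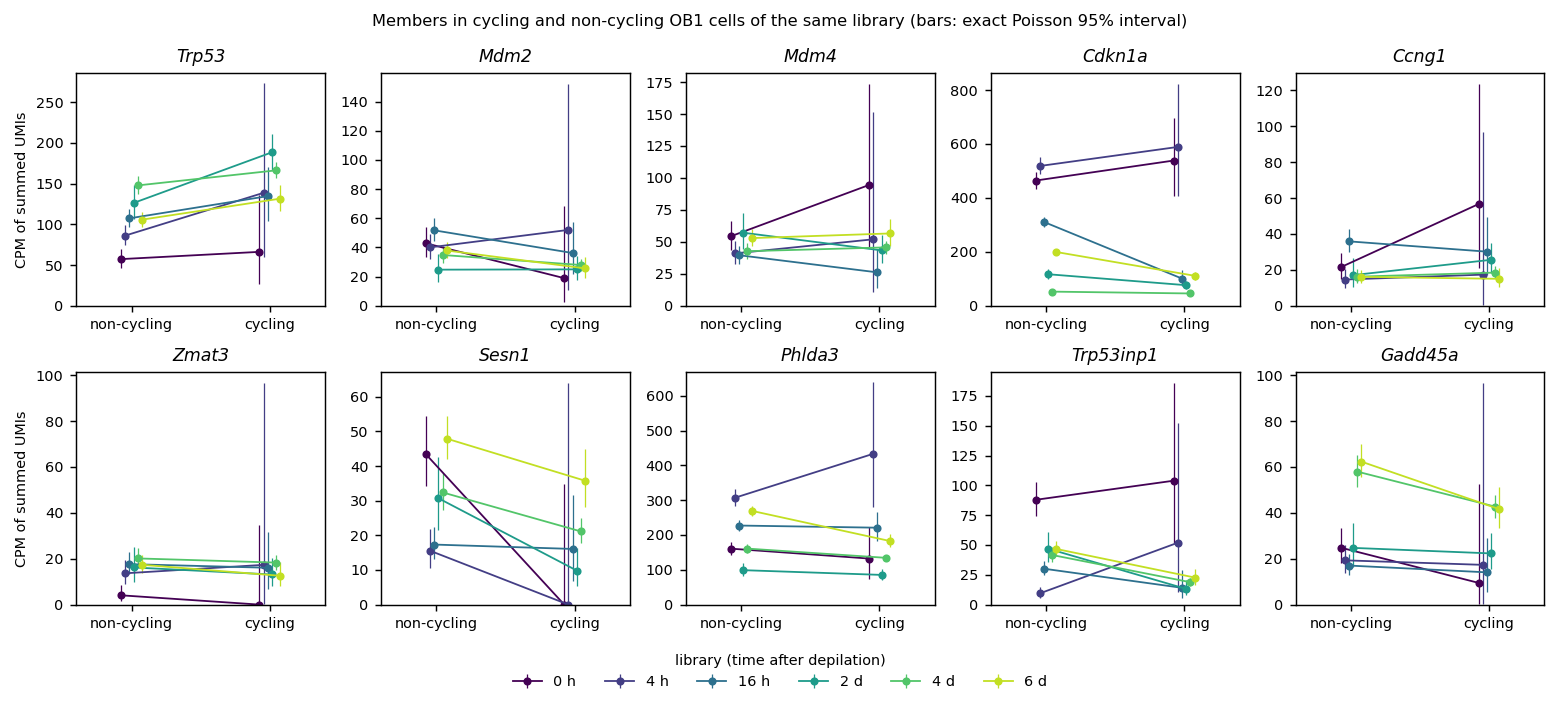
CPM of each gene (a panel each, with its own axis) in non-cycling and cycling OB1 cells. Points joined by a line are from the same library, coloured by time after depilation, and bars are exact Poisson 95% intervals. Trp53 slopes up in 6 of 6 libraries, and Sesn1 and Gadd45a slope down in the 4 libraries from 16 h on. The wide bars at 0 h and 4 h come from 18 and 12 cycling cells.

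Other genes of the pathway did not all follow the 10. In cycling OB1 cells 2 of 16 upstream regulators rose, Chek2 (1.42 ± 0.24) and Chek1 (1.25 ± 0.23), and none fell. Of 11 apoptosis targets, Siva1 (0.81 ± 0.14) and Apaf1 (0.80 ± 0.28) were higher and 3 were lower, with Bbc3, which encodes the death-promoting BH3 protein PUMA, at −0.64 ± 0.21 and Shisa5 at −0.63 ± 0.14. Of 21 other targets 2 were higher, the spindle genes Ckap2 (2.98 ± 0.18) and Psrc1 (2.48 ± 0.20). Another 6 were lower, with the epoxide hydrolase Ephx1 at −0.85 ± 0.14 and the adenylate kinase Ak1 at −0.75 ± 0.15. Cyclins and CDKs were higher in 9 of 14 and lower in 2 (median 1.34), with Ccnb1 at 5.19, Ccnb2 at 5.01, Cdk1 at 4.31 and Gtse1, which restrains P53 in G2, at 2.89. Cells were picked as cycling by proliferation genes. Higher levels of genes of dividing cells, such as Ckap2, Psrc1, Gtse1, Cdk1 and the B cyclins, follow from that choice and are no separate result. The immediate early and stress genes were lower in 12 of 14 and higher in none (median −0.63). They moved with the members here as well, and their part was not tested.

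In uHF.B cells, compared in the same way, 4 members were lower in cycling cells and 1 was higher, at a background of 1940 of 11252 genes lower (17.2%) and 1566 higher (13.9%). Trp53inp1 (−0.62 ± 0.11), Cdkn1a (−0.35 ± 0.07), Gadd45a (−0.35 ± 0.11) and Mdm2 (−0.28 ± 0.09) were lower. Trp53 was higher by 0.22 ± 0.07 (adjusted p = 0.010), in 6 of 6 libraries. Cdkn1a was lower in 6 of 6 libraries, with 83.2 to 517 CPM in cycling and 100 to 607 in non-cycling cells. With DESeq2, with at least 1 UMI as the limit, without 0 h and without 4 d only Trp53inp1 and Cdkn1a stayed lower, and without 6 d Trp53 missed the threshold. All genes passing, in either direction, were 2453, 2738, 3235, 2843 and 2741 in the same order. These alternatives were added after the data were seen.

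The difference between the cycling differences of OB1 and uHF.B was tested as well. None of the 10 genes passed, at a background of 1 of 11824 genes (0.00846%) and 836 at an unadjusted p under 0.05. DESeq2 called 2 genes in all and no member. The estimates ran from −0.65 ± 0.32 for Sesn1 to 0.09 ± 0.18 for Trp53. The interval of 2 SE on either side was wide, −1.38 to 0.51 for Cdkn1a, and for Cdkn1a it still holds a difference of more than 2-fold between the cell types.

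Basal and suprabasal keratinocytes were compared next, since cells stop dividing as they leave the basal layer. Cdkn1a, Phlda3, Mdm2 and Zmat3 were higher in suprabasal cells and Trp53 and Gadd45a lower, at a background of 3874 of 14006 genes higher (27.7%) and 3892 lower (27.8%). Cdkn1a held 563 to 980 CPM in IFE.SB (median 810) and 227 to 554 in IFE.B (median 402), 2 ranges that did not overlap. In the upper follicle it held 346 to 1093 in uHF.SB and 92.6 to 582 in uHF.B, which did. The log2 difference was 1.57 ± 0.25 (adjusted p = 1.7e-06).

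Trp53 held 38.6 to 58.0 CPM in IFE.SB and 82.2 to 97.1 in IFE.B, and 49.4 to 58.8 in uHF.SB and 72.9 to 126 in uHF.B. Neither pair of ranges overlapped, and the difference was −0.71 ± 0.10 (adjusted p = 8.6e-08). Gadd45a was lower by 0.57 on the log2 scale (SE 0.18, adjusted p = 0.0087). Phlda3 was higher by 0.54 ± 0.13 and Mdm2 by 0.51 ± 0.13. Zmat3, higher by 0.29 ± 0.12 (adjusted p = 0.038), lost its call in 7 of the 11 alternatives tried, with DESeq2 among them. The median of the 10 genes was 0.17, against −0.01 over all genes.

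Of the lists, the cyclins and CDKs were lower in 12 of 14 and higher in none, as Cdk1 (−3.77 ± 0.37) and Ccnb1 (−3.69 ± 0.34) show. Among 17 upstream regulators 4 were higher, with the P53 phosphatase gene Ppm1d (1.29 ± 0.12) and the kinase gene Hipk2 (1.27 ± 0.14) leading, and 4 were lower, led by Chek1 (−3.14) and Chek2 (−2.90). Of 12 apoptosis targets 2 were higher, among them Perp, a desmosome protein of stratified epithelia (1.51 ± 0.15), and 5 were lower, with the death receptor gene Fas at −1.52 ± 0.28 and Siva1 at −1.44 ± 0.15. Of 23 other targets 5 were higher and 9 lower, with the kinase gene Plk3 at 1.23. Immediate early and stress genes were higher in 3 of 14 and lower in 1, and the heat shock genes Hspb1 (1.86), Hspa1b (1.33) and Hspa1a (1.15) were the 3 higher ones.

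Outer bulge cells as a whole (OB1, OB2 and OB3 summed) were set against the other basal keratinocytes, uHF.B and IFE.B. Sesn1 was higher by 0.57 ± 0.19 (adjusted p = 0.015) and Zmat3 by 0.49 ± 0.15 (adjusted p = 0.0076). No member was lower, at a background of 2762 of 14006 genes higher (19.7%) and 2330 lower (16.6%). Sesn1 had medians of 22.4 CPM in OB1, 58.1 in OB2 and 28.7 in OB3, against 25.6 in uHF.B and 13.8 in IFE.B. For Zmat3 these were 15.2, 20.8 and 18.0 against 10.8 and 9.09 CPM. The ranges over libraries overlapped for both genes.

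These calls leaned on single libraries. Without 6 d neither passed, and without 0 h only Zmat3 did. Without 4 h Phlda3 (0.40, adjusted p = 0.029) joined them. All genes passing, in either direction, were 4058 without 6 d, 4624 without 0 h and 5247 without 4 h. Trp53 (−0.06 ± 0.12), Mdm2 (−0.0012 ± 0.16) and Mdm4 (0.01 ± 0.10) were close to 0, with intervals of 2 SE of −0.29 to 0.18, −0.31 to 0.31 and −0.19 to 0.21. Cdkn1a at −0.17 ± 0.31 was less certain. Of 12 apoptosis targets, Fas (−1.99 ± 0.40), Pmaip1, which encodes the BH3 protein NOXA (−1.96 ± 0.33), and Shisa5 (−0.43 ± 0.17) were lower and none higher. Among the 23 other targets 6 were higher and 7 lower, with Sesn3, a relative of Sesn1, at 1.87 ± 0.34 and the receptor gene Eda2r at −1.82 ± 0.37. Of 17 upstream regulators 2 were higher and 4 lower, of 14 cyclins and CDKs 1 and 6, and of 14 immediate early and stress genes 4 and 3.

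T and Langerhans cells, the immune cells of the epidermis, were set against basal keratinocytes (OB, uHF.B and IFE.B). Of the 10 genes 7 passed, close to the background of 9404 of 14006 genes (67.1%). Of the 7, 4 were higher and 3 lower, at a background of 3829 genes higher (27.3%) and 5575 lower (39.8%). The median of all genes was −0.22 here, so that values near −0.22 lie in the middle of the distribution. Phlda3 was lower by 4.18 on the log2 scale (SE 0.18, adjusted p = 5.4e-22), a fold of 18.1. Zmat3 was lower by 0.63 (SE 0.17) and Trp53 by 0.59 (SE 0.10). Trp53inp1 (1.26 ± 0.37, adjusted p = 0.0032), Cdkn1a (0.82 ± 0.23, adjusted p = 0.0019), Ccng1 (0.43 ± 0.12) and Mdm4 (0.22 ± 0.09) were higher.

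T and Langerhans cells were unlike each other in Trp53inp1, at 69.3 to 216 CPM in T cells and 20.7 to 39.1 in Langerhans cells. The medians of the basal keratinocyte classes ran from 27.6 to 73.3 CPM, below that of T cells and on either side of that of Langerhans cells. Zmat3 had a median of 11.2 CPM in T cells and 4.76 in Langerhans cells, against 9.09 in IFE.B, so the immune classes lay on either side of IFE.B. Gadd45a did as well, at 55.2 CPM in T cells and 6.51 in Langerhans cells, against 27.6 in IFE.B. Without a filter on low counts only Trp53inp1 and Cdkn1a stayed higher, and Sesn1 and Gadd45a joined the lower genes. In that fit 9531 of 22905 genes passed. Among the lists, Perp was lower by 4.12 (SE 0.17), and Fas (2.06 ± 0.34), Apaf1 (1.35 ± 0.28) and Bax (1.02 ± 0.09) were higher, among 3 higher and 4 lower of 12 apoptosis targets. Cdkn2a, the locus of the MDM2 inhibitor ARF and of p16, was higher by 4.76 ± 0.76, among 5 higher and 8 lower of 17 upstream regulators. Of 23 other targets 6 were higher and 13 lower, of 14 cyclins and CDKs 1 and 11, and of 14 immediate early and stress genes 1 and 12.

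**Figure D4:**
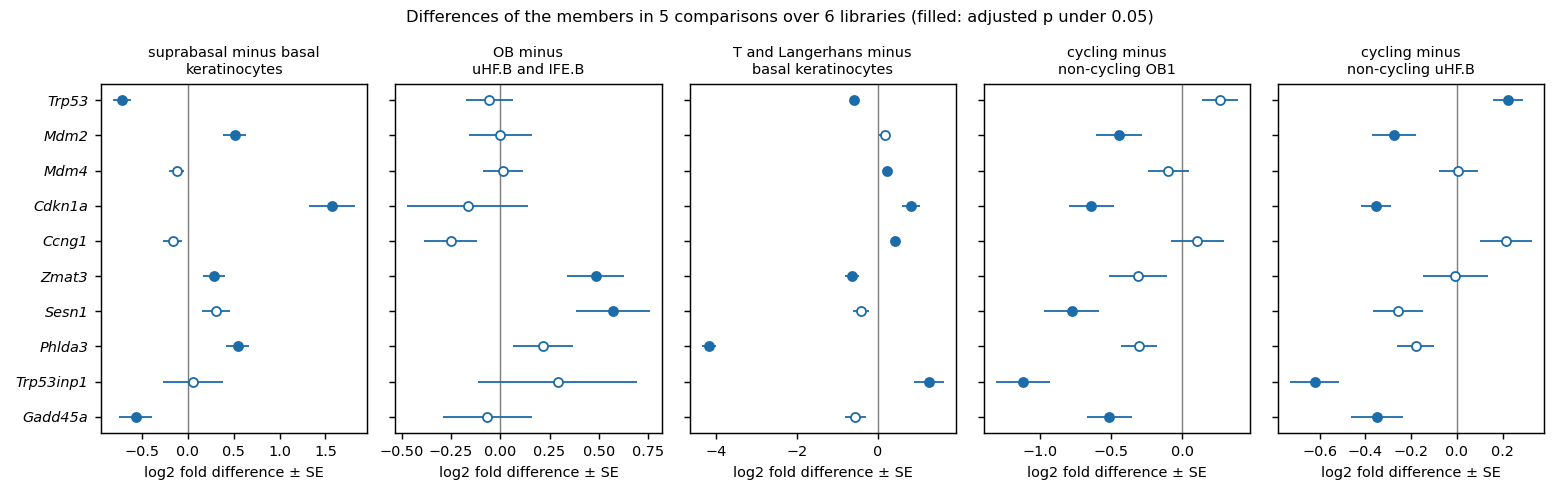
Log2 fold difference ± SE of the 10 genes (rows) in 5 comparisons over 6 libraries, each with its own axis. Filled points have an adjusted p under 0.05 by edgeR's quasi-likelihood test. Trp53 and Cdkn1a lie on opposite sides of 0 in the suprabasal and both cycling panels, and Phlda3 stands at −4.18 in the immune panel.

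The genes whose levels ran most like those of the members were found over 76 sums of a library and a cell class, among 6068 genes with a mean of at least 20 CPM. The sums of a class share its cells' identity, and those of a library its preparation, so Pearson's r is a description. For Trp53 they were Tubb5 (r = 0.75), Hnrnpk (0.75), Snrpe (0.74), Mcm7 (0.73) and Nudt21 (0.73), a tubulin, RNA-processing factors and a subunit of the replicative helicase. For Mdm2 they were Sertad1 (0.80), Rela (0.76), Mafk (0.75), Tmbim1 (0.74) and Ppp1r15a (0.73). For Cdkn1a they were Mbp (0.71), Fam129b (0.71), Cmtm6 (0.70), Ahnak (0.69) and Rnf19b (0.69). Ccng1 had weaker partners, with Clec2d at 0.57 and Zmpste24 at 0.56 leading. None of the other 9 members was among the 5 genes named for any of these 4.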

How the data were processed

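The authors deposited UMI counts per gene and barcode for 6 dorsal skin libraries, made, per the labels and the submitters' processing notes, with the 10x 3′ kit, Cell Ranger 6.1.2 and mm10. The counts were not normalized. The 10 genes and all lists were chosen with earlier results of these data known. The rule for naming genes took all 10 members and at most 4 genes of each list, those with the largest log2 difference among those passing, except for 1 gene that is not reported here.

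Barcodes with 500 to 7000 genes and at most 10% mitochondrial UMIs were kept (55177), and 4675 predicted doublets were removed by Scrublet score at 0.8% per 1000 barcodes. The threshold that Scrublet set itself called 678. Cells were clustered with Seurat 5.3.0 (resolution 0.2) without 525 genes. These were the members, the lists, the 10 proliferation genes and 423 genes correlated with the summed level of those 10 (r above 0.2). Genes correlated with the members alone were not taken out. Hair follicle cells were clustered again by themselves. Each cluster was named after the marker list whose genes led it by the largest average log2 fold change.

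Counts were summed per library and class, needing at least 20 cells for a level and 10 for a test. They were tested in R 4.3.3 with edgeR 4.0.16 (quasi-likelihood, robust, TMM, filterByExpr) and Benjamini-Hochberg adjustment over all genes at 0.05, two-sided. Time was a natural spline of hours with 3 degrees of freedom, which leaves few residual degrees of freedom with 6 libraries. The study's methods do not state the time scale. Comparisons between cells of the same libraries had the library as a block. As each library is a time point of its own mice, their p-values measure spread across time points. Shares have exact Clopper-Pearson 95% intervals. Fits were tested on simulated counts. Alternatives were DESeq2 1.42.0 and its size factors, no filter, no robust option, other time scales, other cycling limits, other clusterings, doublets kept and each library left out.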

Additional observations from a re-analysis of the deposited data

How the results depend on the processing

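Over time no pairing was possible, because each time point has 1 library. Comparisons between cells of the same libraries were already paired, through the library block. For Sesn1, Trp53, Mdm2, Mdm4, Cdkn1a, Ccng1, Zmat3, Trp53inp1 and Gadd45a some signs changed. The cause of these changes was not tested. The number of the 10 genes called over time in OB1, 0 in hours, was 5 on log2(hours + 1), where 1801 of all genes were called. It was 1 by rank of the time point (851 of all genes), 1 with DESeq2 (523), 1 with no filter (254) and 1 at the higher resolution (177). Leaving out each library in turn gave 0 to 3, with 59 to 2245 of all genes called. On the log scale it gave 3 to 7, with 1757 to 3371 called. There the lower resolution gave 1 (1252 of all genes), the higher 4 (1254) and another seed 2 (1406). The number lower in cycling OB1 cells, 5, was 0 with DESeq2, 0 with a limit of at least 1 UMI, 1 with no thinning and 3 to 6 with each library left out. All genes called there, in either direction, were 1336, 878, 1106 and 1336 to 2436. In uHF.B, where the alternatives were added after seeing the data, the number lower in cycling cells, 4, was 2 with DESeq2, 2 with at least 1 UMI and 2 to 5 with each library left out, and the number higher, 1, was 0 to 2. All genes called there, in either direction, were 2453, 2738 and 2741 to 3927. The number higher in OB was 0 to 3 with each library left out, with 4058 to 5247 of all genes called in either direction. In T and Langerhans cells no filter gave 2 higher and 5 lower (9531 of all genes called in either direction). In suprabasal cells DESeq2 gave 4 lower (8239 of all genes called). No alternative tried moved the other counts of the 10 genes by more than 1.5 times, and the counts over time in uHF.B, IFE.B and IFE.SB were 0 throughout. Signs changed, in log2 units, as follows. Over time in OB1, Sesn1 was −0.22 on the log scale, and −0.53, −0.23, −0.18 and −0.86 there without 4 h, 16 h, 4 d and 6 d. In hours it was −0.285 to 1.26 with each library left out, not past the threshold. In cycling OB1 cells Mdm4 was −0.17 to 0.011 with each library left out and 0.12 with at least 4 UMIs, and Ccng1 was −0.086 with at least 1 UMI, −0.0015 with no thinning, −0.075 at the lower resolution and −0.0055 with another seed. In cycling uHF.B cells Mdm4 was −0.061 to 0.074 and Zmat3 −0.096 to 0.068 with each library left out. With at least 1 UMI they were −0.074 and 0.049, and Mdm4 was −0.074 with no thinning, −0.0072 at the lower resolution, −0.0059 at the higher and −0.0068 with doublets kept. In the difference between OB1 and uHF.B, leaving out each library gave −0.022 to 0.11 for Trp53, −0.23 to 0.033 for Ccng1 and −0.059 to 0.20 for Gadd45a. At least 1 UMI gave −0.11 for Trp53, 0.061 for Mdm4, 0.056 for Cdkn1a and −0.017 for Gadd45a, and at least 4 UMIs 0.12 for Mdm4 and −0.13 for Gadd45a. Gadd45a was also −0.041 at the lower resolution, −0.032 with another seed and −0.042 with doublets kept. Trp53inp1 in suprabasal cells was −0.012 with DESeq2 and −0.0083 to 0.21 with each library left out. In OB, leaving out each library gave −0.18 to 0.064 for Mdm2, −0.049 to 0.081 for Mdm4, −0.47 to 0.12 for Cdkn1a and −0.16 to 0.049 for Gadd45a. DESeq2 gave 0.0031 for Trp53 and 0.051 for Mdm2, its size factors 0.051 for Mdm2, doublets kept 0.010 for Mdm2 and the higher resolution −0.015 for Mdm4. None of these was past the threshold except Sesn1 over time on the log scale. Depth limits the levels with 0 UMIs (9 of 760) and with 1 to 3 UMIs (29).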
